A study of Homo sapiens and Mus musculus with 14 samples.

Results

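Distal accessible regions that stayed in the peak lists of SMARCAL1 knockout cells are described here: peaks of the control list, far from the ends of protein-coding genes, that were also present in the lists of both knockout clones. They numbered 10085 of the 38343 narrow distal peaks of control cells, which is 26.3% (exact binomial 95% interval 25.9% to 26.7%), and of the 64806 control peaks in all. The share depends on list length: with each list cut to its strongest peaks, as many as the shortest list holds, it was 47.0%. A peak was taken when it lay on chromosomes 1 to 22 or X, was narrower than 1500 bp, shared at least 1 bp with a peak in the list of each clone, and lay 10 to 500 kb from the nearest start or end of any RefSeq protein-coding gene. Presence in the 3 lists chose the peaks, so their number is a description and not a result. Among all 63315 control peaks on these chromosomes, wherever they lay and however wide they were, 32% were found in both clones.

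The assay was ATAC-seq, in which a transposase cuts open chromatin and peaks mark regions with many cuts. The cells were MDA-MB-436, an established human breast adenocarcinoma line. SMARCAL1 knockout clone 1 was recorded with 3 libraries in batch 1, SMARCAL1 knockout clone 2 with 2 libraries in batch 2, and control cells with 3 libraries in batch 1. The libraries of each group had been merged into 1 peak list before deposit, so no comparison here has a replicate check and no p-value is given. Each knockout is 1 clone. Clone 2 differs from the control cells in genotype and in batch, and the effects of clone and batch cannot be told apart. The 6 other libraries of the series, from the mouse melanoma line B16F10, were not analysed here. All intervals cover counting error only.

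Open regions far from gene ends are in many cases enhancers, short stretches bound by transcription factors that raise the activity of a promoter over a distance. In epithelial and mesenchymal cancer cells such regions are often bound by AP-1, a dimer of JUN and FOS family proteins, beside TEAD, RUNX and ETS factors. SMARCAL1 is a DNA translocase that anneals single-stranded DNA and remodels stalled replication forks.

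The name distal was checked against RefSeq promoter windows, which run from 250 bases before to 50 bases after an annotated transcription start and include starts inside genes and starts of long non-coding RNA (lncRNA) genes. Of the kept distal peaks, 9465 (93.9%, 93.4% to 94.3%) touched no such window. Another 332 (3.29%) touched a promoter window of a protein-coding gene, a start inside the gene since the peaks lie 10 kb or more from any outer end, and 288 (2.86%) touched only a lncRNA promoter window. Among the 19960 distal control peaks absent in both clones, 0.591% touched a protein-coding and 0.882% a lncRNA promoter window. About 6 in 100 of the kept peaks are therefore promoters by annotation although they are far from gene ends.

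The windows under some of these peaks show 2 kinds of sequence, and were picked for the letters they hold. The peaks are in all 3 lists, but windows were matched to the control peak only. Whether the clone peaks reach the printed letters was not checked. The first set is 4 lncRNA promoter windows that hold the AP-1 letters TGANTCA. They were chosen from those members whose window held the letters, by the best worst rank over the 3 lists. They are chr1:200483457-200483756 on the minus strand, chr2:168211200-168211499, chr6:82017354-82017653 and chr5:42950639-42950938, the last 3 on the plus strand, from RefSeq on GRCh38.p14. They are printed 5′ to 3′ with the AP-1 letters in capitals.
LOC124900414: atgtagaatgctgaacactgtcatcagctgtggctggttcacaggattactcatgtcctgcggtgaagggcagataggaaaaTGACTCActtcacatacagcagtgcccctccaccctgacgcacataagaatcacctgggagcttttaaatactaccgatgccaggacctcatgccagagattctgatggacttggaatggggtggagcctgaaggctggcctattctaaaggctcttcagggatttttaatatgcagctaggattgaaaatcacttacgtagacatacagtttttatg
LOC124906088: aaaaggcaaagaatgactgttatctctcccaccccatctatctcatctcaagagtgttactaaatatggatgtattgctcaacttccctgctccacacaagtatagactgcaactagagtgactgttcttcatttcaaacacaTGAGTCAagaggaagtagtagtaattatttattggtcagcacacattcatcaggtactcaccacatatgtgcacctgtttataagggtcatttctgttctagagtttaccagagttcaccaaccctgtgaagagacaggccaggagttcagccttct
LOC107986617: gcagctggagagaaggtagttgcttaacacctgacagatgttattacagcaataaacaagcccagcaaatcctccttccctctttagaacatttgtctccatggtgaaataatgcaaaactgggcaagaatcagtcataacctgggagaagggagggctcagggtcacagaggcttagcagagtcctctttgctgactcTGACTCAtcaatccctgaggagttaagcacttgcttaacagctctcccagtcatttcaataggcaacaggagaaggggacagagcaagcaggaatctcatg
LOC105374745: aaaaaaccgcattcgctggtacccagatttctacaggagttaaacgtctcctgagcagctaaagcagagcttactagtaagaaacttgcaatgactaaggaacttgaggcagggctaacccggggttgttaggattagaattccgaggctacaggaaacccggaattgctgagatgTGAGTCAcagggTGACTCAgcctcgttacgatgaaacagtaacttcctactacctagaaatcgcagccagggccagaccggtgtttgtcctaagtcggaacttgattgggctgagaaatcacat
The peak over LOC124900414 was 695 bp wide and lay 67.5 kb from the nearest protein-coding gene end, that of KIF14, a mitotic kinesin. Its score, read here as the −log10 p of the peak caller, was 20.5 in clone 1, 33.5 in clone 2 and 36.9 in control. These scores are on separate scales in each list, and the worst of its 3 percentile ranks was 99.2. The window of LOC105374745 holds the letters at 2 places 5 bases apart, and its peak had scores of 11.6 in clone 1, 24.1 in clone 2 and 16.3 in control.

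The second set is 3 windows of another kind, rich in CpG and in GC boxes (GGGCGG on either strand, in capitals). They belong to KLHL32, a protein-coding gene with a start inside its body at chr6:96924478-96924777, and to the lncRNA genes DANCR at chr4:52712144-52712443 and CHASERR at chr15:92882593-92882892, all on the plus strand of GRCh38.p14 from RefSeq. CHASERR is a lncRNA that holds down the activity of its neighbour CHD2, a chromatin remodeller.
KLHL32: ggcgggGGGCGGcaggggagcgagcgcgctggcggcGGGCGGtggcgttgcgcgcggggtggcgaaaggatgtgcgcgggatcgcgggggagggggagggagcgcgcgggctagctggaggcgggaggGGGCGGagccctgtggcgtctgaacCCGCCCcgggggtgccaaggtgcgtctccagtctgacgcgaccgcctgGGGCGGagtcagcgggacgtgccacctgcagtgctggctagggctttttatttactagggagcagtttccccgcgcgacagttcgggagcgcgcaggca
DANCR: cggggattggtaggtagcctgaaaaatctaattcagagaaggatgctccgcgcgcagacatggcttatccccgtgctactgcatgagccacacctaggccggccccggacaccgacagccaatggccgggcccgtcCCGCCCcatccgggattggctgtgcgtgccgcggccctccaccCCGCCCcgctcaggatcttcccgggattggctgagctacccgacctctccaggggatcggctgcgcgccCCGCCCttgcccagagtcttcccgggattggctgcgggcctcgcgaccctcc
CHASERR: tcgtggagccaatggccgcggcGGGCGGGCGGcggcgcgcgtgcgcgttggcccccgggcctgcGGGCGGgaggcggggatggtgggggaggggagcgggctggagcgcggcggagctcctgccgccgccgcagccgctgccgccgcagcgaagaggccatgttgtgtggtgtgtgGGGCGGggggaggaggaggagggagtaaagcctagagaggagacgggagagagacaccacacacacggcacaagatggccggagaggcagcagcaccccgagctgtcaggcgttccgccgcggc
The window of KLHL32 has a GC content of 73.7% and that of CHASERR 74.7%, against 46.3% in the window of LOC124900414. The KLHL32 peak lay 25.9 kb from the nearest gene end and had scores of 20.1 in clone 1, 34.5 in clone 2 and 33.0 in control. The DANCR peak had scores of 19.5 in clone 1, 35.2 in clone 2 and 29.9 in control. Not all strong windows are of these kinds: the window under the best protein-coding member, inside ST7, has no GC box and a GC content of 51.0%. The CHASERR peak had scores of 16.2 in clone 1, 28.4 in clone 2 and 24.95 in control.

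Across all promoter windows lying wholly inside a kept distal peak, the AP-1 letters were found in 67 of 266 lncRNA windows (25.2%, 20.1% to 30.9%). They were found in 14 of 74 lncRNA windows wholly inside a distal peak absent in both clones (18.9%, 10.7% to 29.7%), in 11.2% of 6773 distal lncRNA windows with no control peak, and in 10.3% of all 12792 lncRNA windows. A window was called CpG-poor when its observed CpG count was under 0.5 of that expected from its C and G content. In CpG-poor lncRNA windows the letters stood in 50 of 94 under kept peaks (53.2%, 42.6% to 63.6%), in 12 of 28 under peaks absent in both clones (42.9%, 24.5% to 62.8%), and in 12.1% of 6011 with no control peak. The interval of the kept peaks lies wholly above that of windows with no peak, and overlaps that of the absent peaks. The requirement that the window lie wholly inside the peak bears on the last comparison. With windows touched by at least 1 bp, the CpG-poor lncRNA shares were 71 of 154 under kept peaks (46.1%, 38.1% to 54.3%) and 32 of 128 under absent peaks (25%, 17.8% to 33.4%), whose intervals do not overlap. Kept distal peaks had a median width of 568 bp and absent ones 245 bp, and the part of width in that difference was not tested.

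Internal promoters of protein-coding genes under kept peaks, taken over all CpG classes, had the AP-1 letters in a smaller share than the lncRNA windows. Under kept peaks 30 of 351 windows held them (8.55%, 5.84% to 11.98%), an interval below that of the lncRNA windows, against 6.17% of all 21943 protein-coding windows. In their CpG-poor part the count was 19 of 46 under kept peaks (41.3%, 27.0% to 56.8%), 4 of 15 under absent peaks (26.7%) and 12.9% of 1445 with no control peak. With CpG-poor windows touched by at least 1 bp it was 23 of 68 under kept peaks (33.8%, 22.8% to 46.3%). Under absent peaks it was then 17 of 45 (37.8%, 23.8% to 53.5%), so the order of kept and absent peaks was reversed. Over all CpG classes the touched protein-coding windows held the letters in 8.74% under kept and 16.2% under absent peaks. Among CpG-poor windows under kept peaks the intervals of protein-coding and lncRNA genes overlap, and with no control peak the shares over all windows were 10.96% and 11.2%. GC boxes stood in 69.2% of the protein-coding windows under kept peaks, in 68.1% under absent peaks, in 19.2% with no control peak and in 56.3% of all protein-coding windows. In lncRNA windows the GC box shares were 48.1% under kept peaks, 55.4% under absent peaks, 10.97% with no control peak and 25.6% of all. The TEAD letters GGAATG, the RUNX letters TGTGGT and the ETS letters CCGGAA stood in 18.8%, 15.04% and 25.6% of the lncRNA windows under kept peaks, against 17.6%, 13.5% and 22.97% under absent peaks. With no control peak these letters stood in 19.2%, 18.7% and 5.30% of the lncRNA windows, and in all lncRNA windows in 17.1%, 16.2% and 10.5%. Over all CpG classes the TEAD and RUNX shares under kept peaks were thus no higher than those with no peak, while the ETS share was higher. In CpG-poor lncRNA windows TEAD stood in 34.0% (24.6% to 44.5%) under kept peaks and in 20.3% with no control peak. RUNX stood there in 28.7% (19.9% to 39.0%) and 19.7% (18.7% to 20.7%), intervals that overlap. In CpG-rich lncRNA windows the TEAD shares were 10.5% and 9.84%, and the RUNX shares 7.56% and 10.5%. CpG-poor windows were 35.3% of the lncRNA windows under kept peaks and 88.7% of those with no control peak. The median GC content of lncRNA windows was 61.0% under kept peaks and 45.7% with no control peak, so base composition differs between these sets. Some genes gave more than 1 window: the 412 protein-coding windows touched by kept peaks belong to 318 genes, and the 369 lncRNA windows to 344. The intervals take windows as independent and may therefore be too narrow. All motifs were searched on both strands. A match is a run of letters and not evidence of binding.

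**Figure D1:**
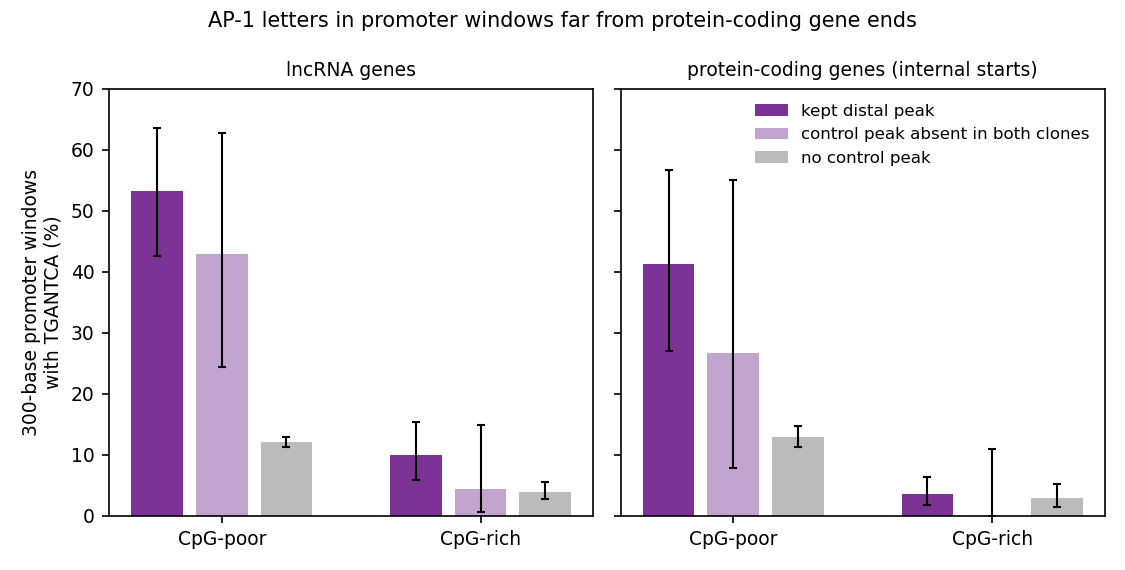
Share of 300-base promoter windows, 10 to 500 kb from protein-coding gene ends, that hold the AP-1 letters (vertical axis, percent, from 0), for CpG-poor and CpG-rich windows of lncRNA genes (left) and of internal starts of protein-coding genes (right); bars are windows wholly inside a kept distal peak, wholly inside a control peak absent in both clones, and without a control peak, and error bars are exact binomial 95% intervals. In CpG-poor lncRNA windows the bars stand at 53.2%, 42.9% and 12.1%, and the intervals of the first pair overlap.

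Presence in both clones went with the strength of the peak in control cells. In decile 1 of the control score, the lowest, 68 of 4590 distal peaks were kept (1.48%), in decile 5 7.03%, in decile 8 40.3%, and in decile 10 3639 of 3835 (94.9%). The kept peaks thus cover the whole range of scores but come mostly from its top: of the 10085 strongest distal control peaks, 7350 (72.9%, 72.0% to 73.7%) were kept. The control score of the distal peaks that failed to qualify was lower, with a median of 5.47 for peaks in neither clone, 6.00 for the 3252 peaks in clone 1 only and 6.56 for the 5046 in clone 2 only, against 9.79 for the kept peaks. Found singly, 34.8% of the distal control peaks were in clone 1 and 39.5% in clone 2, against 42% and 43.4% of all control peaks.

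Narrow peaks within 1 kb of a gene end were kept more often, at 54.1% of 10689, and those at 1 to 10 kb less often, at 22.1% of 9244. Peaks beyond 500 kb stood at 27.2% of 3424, and distal peaks of 1500 bp or more at 86.1% of 194 (80.4% to 90.6%). Kept peaks at gene ends had a median width of 1034 bp, against 568 bp for kept distal peaks, and within score deciles alone gene-end peaks were kept more often than distal ones. With equal weight for each cell of control score decile and width quintile, the distal share was 26.6% and the share of all narrow peaks under 10 kb was 24.1%, a difference of 2.56 percentage points (1.50 to 3.61). The sign of this difference was not the same in the 2 clones: at equal weights it was -2.48 points (-3.69 to -1.26) for presence in clone 1 and 7.44 points (6.27 to 8.61) for presence in clone 2. Within these lists the distal excess in the joint share therefore stands in clone 2, the list of the other batch.

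**Figure D2:**
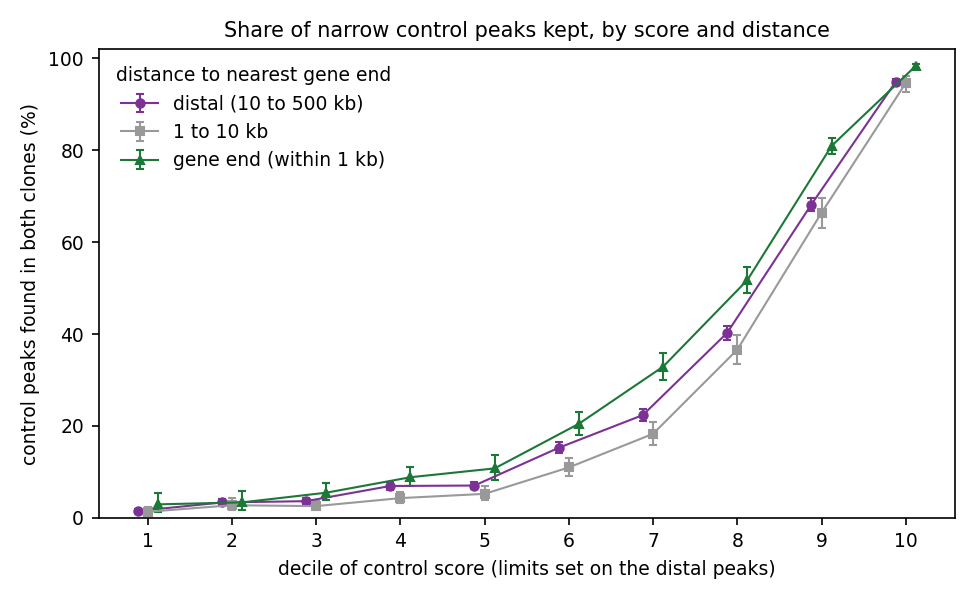
Share of narrow control peaks found in both clones (vertical axis, percent) by decile of the control score, lowest to highest (horizontal axis), for distal peaks, peaks 1 to 10 kb from a gene end and peaks within 1 kb of a gene end; points are shares and error bars exact binomial 95% intervals. All 3 curves are low at weak scores and high at strong ones, for distal peaks to 94.9% in decile 10, and the distal curve lies between the others in all 10 deciles.

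The control peak of a kept distal region was mostly covered by its clone 1 peak and in smaller part by its clone 2 peak. In 10036 of them (99.5%) at least 1 base was shared by control, clone 1 and clone 2 peaks, and the median shared core was 233.5 bp. The median width was 503 bp for the clone 1 peak (quartiles 365 and 679), 235 bp for the clone 2 peak (172 and 321) and 568 bp for the control peak (430 and 748). Clone 1 peaks covered a median of 83.3% of the bases of the control peak and clone 2 peaks 45.1%. At least 50% of the control peak was covered by clone 1 in 93.0% of the kept peaks and by clone 2 in 40.2%. The strongest overlapping clone 2 peak lay wholly inside the control peak in 94.8% of cases, the strongest clone 1 peak in 38.3%. The median offset between centres was 52 bp for clone 1 and 46.5 bp for clone 2. More than 1 clone 1 peak lay on the control peak in 101 cases and more than 1 clone 2 peak in 581. Peak widths in the whole clone 2 list were short as well, with a median of 200 bp against 453 bp in clone 1 and 399 bp in control. In kept peaks nearer than 10 kb the median cover was 86.1% for clone 1 and 35.8% for clone 2.

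Within each list the scores of the kept distal peaks spread over nearly all ranks. The percentile rank counts the share of the list that a peak stands above, so 100 is the strongest. The median rank was 66.4 in clone 1 (quartiles 43.1 and 83.2), 66.4 in clone 2 (41.6 and 84.4) and 80.9 in control (66.8 and 90.5). In all 3 lists together 4974 of them (49.3%) stood above the list median, and 811 (8.04%) above rank 90. In none of the lists did 441 (4.37%) pass the median. Across the 10085 peaks the Spearman rank correlation was 0.579 between control and clone 1 ranks, 0.625 between control and clone 2, and 0.494 between the clones. In the 7824 kept peaks nearer than 10 kb these values were 0.723, 0.713 and 0.612. Neighbouring peaks share libraries and local depth, so these correlations describe the lists and carry no p.

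**Figure D3:**
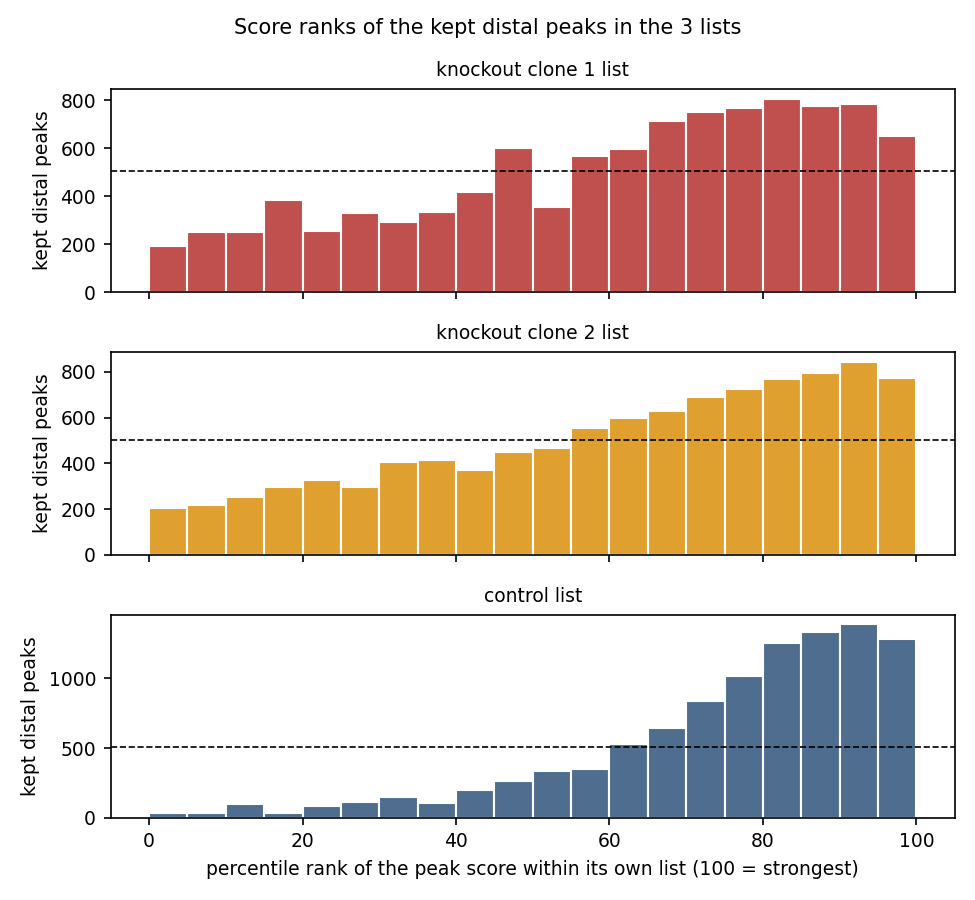
Number of kept distal peaks (vertical axis, from 0) by percentile rank of their score within the clone 1, clone 2 and control lists (horizontal axis, bins of 5), with a dashed line at the number an even spread would give. Counts are mostly higher toward high ranks in all 3 lists, and the medians are 66.4 in clone 1, 66.4 in clone 2 and 80.9 in control.

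The strongest member in all 3 lists was a 366 bp peak at chr10:128464326-128464691 (hg38), between genes and 338 kb from MKI67, the gene of a proliferation marker. Its score was 113 in clone 1, 88.4 in clone 2 and 104 in control, the top of each list. Next by the worst of the 3 ranks was chr13:87123974-87124936, 489 kb from LOC124900338, with scores of 30.8 in clone 1, 46.2 in clone 2 and 39.8 in control. It was followed by chr1:196180781-196182008, 43.8 kb from KCNT2, a sodium-activated potassium channel, with 29.2 in clone 1, 51.8 in clone 2 and 53.6 in control. This last peak had the widest shared core of all, 1101 bp. Then came chr7:13919970-13920782 inside ETV1, an ETS family transcription factor, with 32.1 in clone 1, 43.2 in clone 2 and 39.4 in control.

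Of the other members of the best 10, those reported here lay at chr5:23466190-23467042 near PRDM9 (a histone methyltransferase of meiosis), chr12:20212568-20213207 near PDE3A (a cyclic nucleotide phosphodiesterase) and chr2:739785-741117 near TMEM18, then at chr5:26553117-26553511 near CDH9 (a cadherin) and chr11:85718806-85719671 inside SYTL2 (a vesicle transport protein). Their scores ran over 22.98 to 28.2 in clone 1, 38.8 to 46.5 in clone 2 and 35.0 to 45.8 in control. Among these 5 only the peak near TMEM18 touched a promoter window, that of the lncRNA gene LOC105373480. Of the 9 peaks described, 2 were inside a protein-coding gene and 7 between genes.

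Some members changed rank strongly between lists. Lowest in clone 1 against control was chr8:119654891-119655627 inside ENPP2, the gene of autotaxin, with rank 5.88 in clone 1 and 95.8 in control, and rank 86.1 in clone 2. Next were chr6:93677577-93677934 near EPHA7, an ephrin receptor, with ranks 3.16 in clone 1, 94.0 in clone 2 and 92.5 in control, and chr6:166940560-166941062 inside RNASET2, a ribonuclease, with 1.17, 35.6 and 89.0 in the same order. Highest in clone 1 against control were peaks near RAD51AP2 (rank 88.3 against 1.12), AHR, the aryl hydrocarbon receptor (89.0 against 3.61), and AGPAT5, an acyltransferase of phospholipid synthesis (95.8 against 11.9). All 6 were chosen as extremes of that difference. Their low ranks are scores close to the list minimum of 5. They were 5.02 to 5.11 in clone 1 for the first 3, and 5.02 to 5.09 in control for the last 3.

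Extremes of clone 2 stood elsewhere. Lowest in clone 2 against control were peaks near RHOF, a small GTPase (rank 3.03 against 93.6), LOC105376722 (4.88 against 94.8) and LOC128966717 (6.37 against 93.3). In clone 1 these 3 ranked 94.1, 81.3 and 84.0. Highest in clone 2 against control were peaks near TLL1, a secreted metalloprotease (95.9 against 11.2), LIPI, a lipase (83.8 against 1.13), and NEK1, a kinase of cilia and DNA repair (81.7 against 3.61). Their clone 1 ranks were 17.4, 32.1 and 49.4. The control scores of these last 3 were 5.02 to 5.08, again close to the minimum. For the 3 lowest in clone 2, the clone 2 scores were 6.75 to 7.14.

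Position along the genome was described with what the rule left free. The centre of 4360 kept distal peaks (43.2%, 42.3% to 44.2%) lay inside a protein-coding gene body, against 45.9% of the distal peaks absent in both clones. With equal weight for each cell of score decile and width quintile, distal peaks inside genes were kept in 21.2% and those between genes in 22.04%, a difference of -0.85 points whose interval (-1.81 to 0.11) includes 0. Singly, the difference was -1.21 points (-2.42 to 0.00) for presence in clone 1 and -2.06 points (-3.26 to -0.86) for presence in clone 2. The host genes were long, with a median of 243 kb for kept and 206 kb for absent peaks. The nearest gene end was the 5′ end for 52.7% of the kept peaks with a gene of known strand and for 51.9% of the absent ones, intervals that overlap. Along the host gene quintiles 1 to 5 from the 5′ end held 16.5%, 23.8%, 23.4%, 21.8% and 14.4% of the kept peaks, and 14.9%, 24.3%, 23.7%, 22.5% and 14.6% of the absent ones.

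The median distance to a gene end was 63.9 kb for kept peaks and 56.5 kb for absent ones. By distance the kept share was 23.5% at 10 to 25 kb, 26.0% at 25 to 50 kb, 27.3% at 50 to 100 kb, 28.2% at 100 to 200 kb and 27.3% at 200 to 500 kb. Presence in clone 1 moved little over these bins, between 33.7% and 35.5%, while presence in clone 2 was 34.9% in the nearest and 42.8% in the farthest bin. Relative to the number expected from the control score deciles, clone 2 peaks stood at 0.909 in the nearest and 1.08 in the farthest bin, and clone 1 peaks at 0.997 and 0.968.

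Chromosomes differed more than distances did. The kept share was highest on chromosomes 6 and 18, both at 30.5%, and lowest on chromosome 22, where 15 of 270 distal peaks were kept (5.56%, 3.14% to 9.00%). Against the number expected from score deciles the kept peaks of chromosome 22 stood at 0.466, those of chromosome 16 at 0.768, those of chromosome 17 at 0.791 and those of chromosome 7 at 1.18. On chromosome 22 the ratio was 1.01 for clone 1 and 0.414 for clone 2. On chromosome 19 it was 1.05 for clone 1 and 0.684 for clone 2. On chromosome 7 it was 1.18 for clone 1 and 1.05 for clone 2. Relative to score deciles, the shortfall on chromosomes 19 and 22 thus stands in the list of clone 2 and batch 2. The excess on chromosome 7 stands mainly in clone 1. The expected kept share was itself low, at 11.9% on chromosome 22 and 15.5% on chromosome 19, where 13.5% were kept (ratio 0.873). Unadjusted presence in clone 1 was low there too, at 21.1% on chromosome 22 and 25.8% on chromosome 19, against 34.8% of all distal peaks. The number of DNA copies per chromosome in the clones was not measured here, and its part was not tested.

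**Figure D4:**
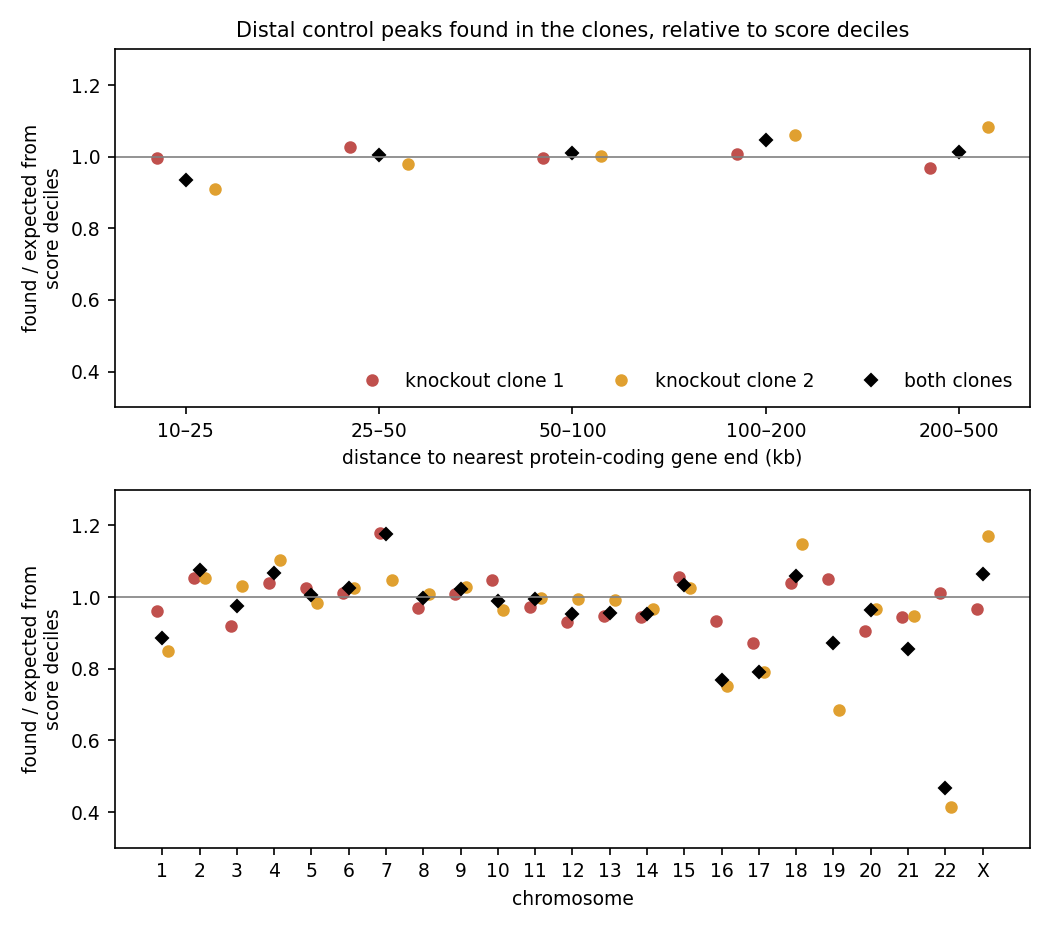
Distal control peaks found in clone 1, in clone 2 and in both, divided by the number expected from control score deciles over all distal peaks (vertical axis, ratio), by distance to the nearest protein-coding gene end in kb (top) and by chromosome (bottom); the grey line marks 1. Clone 2 ratios run over 0.909 to 1.08 across the distance bins, and on chromosome 22 the clone 2 ratio is 0.414 beside 1.01 for clone 1.

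A minority of the kept distal peaks stood in small groups. Of them 2382 (23.6%, 22.8% to 24.5%) lay within about 12 kb (midway between 12 and 13 kb) of another kept peak, in 1094 groups, of which 160 had 3 or more members and the largest had 6. Among the 10085 strongest distal control peaks the share within about 12 kb of another was 22.8%, an interval (21.99% to 23.6%) that overlaps that of the kept peaks. Those peaks formed 1045 groups, of which 168 had 3 or more members and the largest had 6, so such grouping is not particular to kept peaks. The share was 29.3% among the 19960 distal peaks absent in both clones, a larger set and so a denser one.

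There were groups of 6 near DCBLD2 and ANXA2R. The DCBLD2 group, with the higher summed control score, spanned 31.7 kb at chr3:98954761-98986454, between genes and 53.1 to 84.3 kb from DCBLD2, a neuropilin-like membrane receptor. It held 6 of the 7 distal control peaks in the span. The member at chr3:98981025-98981322 touched the promoter window of the lncRNA gene LINC00973. Scores ran over 5.02 to 16.6 in clone 1, 8.76 to 26.0 in clone 2 and 5.69 to 20.8 in control, and the same peak, at chr3:98971085-98971771, was the strongest in each list. The ANXA2R group spanned 33.9 kb, at chr5:42985250-43019102, and lay 20.3 to 53.2 kb from ANXA2R, a receptor for annexin A2. Its scores ran over 5.19 to 7.44 in clone 1, 8.16 to 14.9 in clone 2 and 7.06 to 10.9 in control. The members at chr5:42991977-42992949 and chr5:43017832-43019102 touched promoter windows of the lncRNA genes LOC105374746 and LOC105374748. Here the order of strength differed, with the strongest peak at chr5:42985250-42986131 in control and at chr5:43007538-43008819 in clone 2. In clone 1 the top score belonged to 1 peak of 1173 bp that covers parts of 2 members.

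**Figure D5:**
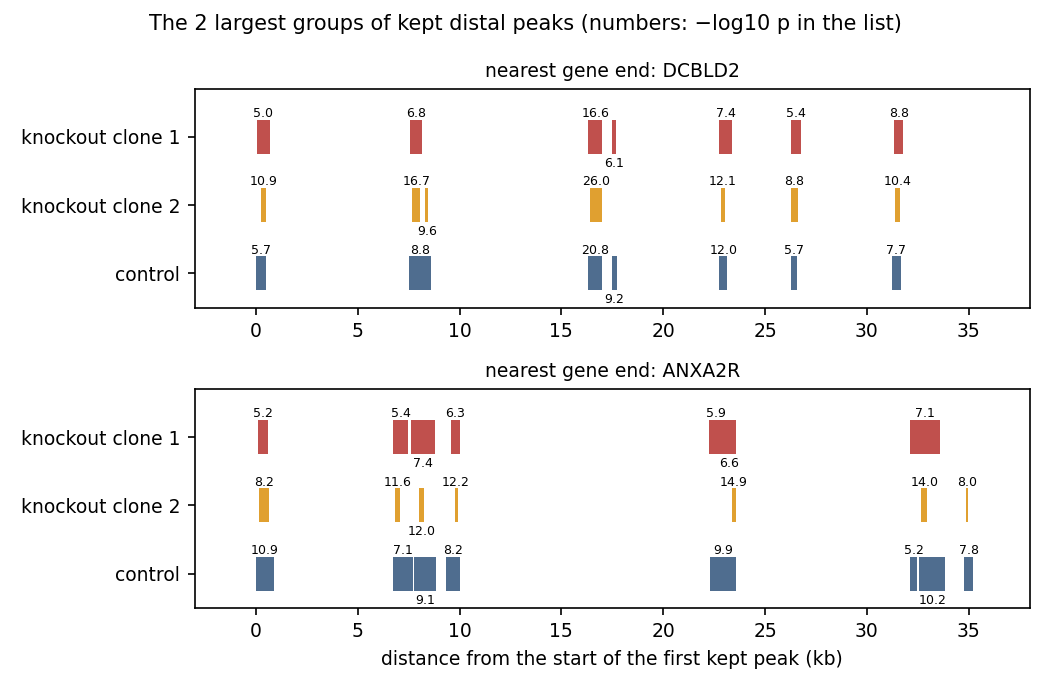
Peaks of knockout clone 1, knockout clone 2 and control (rows) along the 2 largest groups of kept distal peaks, near DCBLD2 (top) and ANXA2R (bottom), as bars drawn to scale against the distance from the start of the first kept peak (kb); the number at each bar is its −log10 p in that list. Near DCBLD2 the bar at about 16 kb is the strongest of each row, with 16.6 in clone 1, 26.0 in clone 2 and 20.8 in control.

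Next in size was a group of 5 at chr6:73695582-73733537 inside CD109, whose product binds TGF-beta at the cell surface. It lay 16.4 to 53.8 kb from the ends of that gene, and 1 of its members touched an internal CD109 promoter window. Its scores ran over 5.04 to 8.19 in clone 1, 9.07 to 18.5 in clone 2 and 6.88 to 13.4 in control. A group of 4 at chr13:101639650-101655353 lay inside ITGBL1, an integrin-like secreted protein, with FGF14 as the gene of the nearest end. It held all 4 distal control peaks of its 15.7 kb, with scores up to 14.2 in clone 1, 27.5 in clone 2 and 24.95 in control. Another group of 4 at chr15:92803717-92832166 lay 68.2 to 95.7 kb from CHD2, on the side of the CHASERR promoter printed above. Its 4 members ranked between 71.8 and 95.1 in clone 1, between 76.2 and 94.5 in clone 2 and between 92.7 and 97.4 in control.

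Kept distal peaks were spread over many genes. Of 19974 protein-coding genes, 4239 (21.2%) were the nearest gene of at least 1 of them, which is 49.3% of the 8602 genes nearest to any narrow distal control peak. For 2118 of these genes the number was 1, and 79 genes with 10 or more held 947 peaks (9.39%). Nearness is a position and does not show which gene a region acts on. Most peaks were counted for CTNND2, the delta-catenin of cell junctions, with 21 kept of 66 distal control peaks, 14 of them inside the gene. It was followed by TRPS1, a GATA-type repressor of breast epithelium, with 19 of 64, BRINP3 with 18 of 49, CNTN6, a neural adhesion protein, with 16 of 30, and TRIO, an exchange factor that activates small GTPases, with 15 of 25. A count of 15 was shared by BACH2, SNTB1, SOX11, GPC6, HAS2, SEMA5A and CDH12, among which TRIO had the highest kept share and CDH12, with 19.5%, the lowest. The kept share at TRIO was 60.0% and at CNTN6 53.3%, against 31.8% at CTNND2, so a high count reflects in part how many distal peaks a gene neighbours.

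At TRPS1 the kept peaks had a median score of 8.54 in clone 1 (5.57 to 20.5), 21.4 in clone 2 (7.89 to 34.1) and 14.9 in control (6.06 to 40.2). At CTNND2 the medians were 6.90 in clone 1 (5.40 to 12.4), 14.3 in clone 2 (8.43 to 24.3) and 10.4 in control (6.08 to 23.2). The TRPS1 peaks thus had higher medians than the CTNND2 peaks in each list.

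Gene lists were read through the nearest gene. Expected shares here take account of score deciles and not of width, and peaks near the same gene were counted as independent. For growth factor receptors and ligands 68 of 146 distal peaks were kept (46.6%, 38.3% to 55.0%), beside 33.5% expected from their score deciles and 26.3% of all distal peaks. IGF1R, the receptor of insulin-like growth factor, had 14 of 25, EGFR, the epidermal growth factor receptor, 12 of 21 and VEGFC, a ligand of lymphatic growth, 8 of 13. The kept peaks at EGFR had a median score of 7.03 in clone 1, 14.7 in clone 2 and 10.6 in control, and 6 of the 12 lay inside the gene. For basal breast epithelial markers, which share EGFR with that list, 30 of 76 were kept (39.5%, 28.4% to 51.4%, expected 28.9%), with ID4 at 4 of 8 and CAV2 at 3 of 7. For luminal markers the count was 4 of 12, at ESR1, the estrogen receptor, and GATA3. The intervals of the luminal and basal lists overlap.

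For extracellular matrix genes and adhesion receptors 66 of 185 were kept (35.7%, expected 30.6%), led by TNC, the matrix protein tenascin C, with 13 of 25, and the collagen gene COL5A2 with 7 of 14. For mesenchymal genes the count was 54 of 149 (36.2%, expected 35.4%), with TGFB2, a TGF-beta ligand, at 10 of 21, CDH2, N-cadherin, at 9 of 31 and ZEB2, a repressor of epithelial genes, at 7 of 14. For AP-1 factors it was 19 of 42 (45.2%, expected 40.2%), with JUN at 6 of 11 and MAF at 3 of 11. The 6 kept peaks near JUN had median scores of 7.82 in clone 1, 10.5 in clone 2 and 12.4 in control. RUNX, ETS and FOX factors stood at 51 of 175, led by FOXP1 with 10 of 29 and FOXN3 with 9 of 14. Hippo pathway factors and targets stood at 14 of 54 (25.9%, expected 34.1%). In that list VGLL3 had 5 of 18 kept, WWTR1 2 of 6 and YAP1, the transcriptional coactivator of that pathway, 2 of 2. For NF-kB factors and inhibitors 11 of 42 were kept (26.2%, expected 37.8%).

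At NFKBIZ, an inhibitor of the NF-kB family that also acts as a coactivator, 5 of 14 distal peaks were kept. Inside the gene chr3:101848952-101850168 touched an internal promoter window, with scores of 12.545 in clone 1, 23.4 in clone 2 and 25.1 in control. Beyond the gene chr3:101901929-101902704 had 12.7 in clone 1, 21.1 in clone 2 and 26.6 in control. The remaining 3 ran over 5.24 to 7.87 in clone 1, 11.5 to 12.6 in clone 2 and 8.96 to 20.2 in control.

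Lists of innate immunity held few distal peaks in all, so their shares are imprecise. Nucleic acid sensing genes had 5 of 13 kept (38.5%, 13.9% to 68.4%, expected 26.5%), among them 1 each inside RIGI and IFIH1, sensors of double-stranded RNA, and inside TRIM25, a ubiquitin ligase of the RIG-I pathway. Interferon-stimulated genes had 1 of 8, near IFI44, with 10.1% expected. Inflammatory cytokines and chemokines had 7 of 23 (30.4%, expected 27.4%), with CSF2 at 2 of 4 and CXCL8 at 2 of 5. Checkpoint ligands had 11 of 25 (44%, expected 44.5%), of which TNFSF4 held 7 and CD47, a signal against phagocytosis, 4. CD274, the checkpoint ligand gene the series is about, was nearest to 0 distal control peaks. SMARCAL1 was nearest to 1 distal control peak, which was not kept, and the knockout in the clones cannot be checked from peak lists.

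Marker lists of other tissues were measured in the same way. Leukocyte markers had 10 of 24 kept (41.7%, 22.1% to 63.4%, expected 25.5%), 9 of them near PTPRC, the CD45 gene. This ratio of found to expected, 1.64, was the highest of all 19 lists, against 1.39 for growth factor receptors and ligands. Neural markers had 10 of 49 (20.4%, 10.2% to 34.3%, expected 28.3%) and melanocyte markers 7 of 29 (24.1%, expected 26.5%). Endothelial and fibroblast markers had 16 of 47 (34.0%, expected 27.6%), hepatocyte and gut markers 4 of 11 (36.4%, expected 37.2%) and housekeeping genes 1 of 16 (6.25%, expected 9.73%). In control cells a peak stood within 1 kb of a gene end for 23 of 25 housekeeping genes, 11 of 19 basal and 5 of 15 luminal breast markers, 5 of 16 leukocyte, 4 of 8 melanocyte, 3 of 12 endothelial and fibroblast, 6 of 12 neural and 2 of 10 hepatocyte and gut markers. A peak at a gene end shows an open end and not expression.

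Small RNA genes lay under a few of the kept distal peaks. Of 26 distal control peaks over microRNA genes 15 were kept (57.7%, 36.9% to 76.6%), beside 48.0% expected from their scores. Over MIR155, a microRNA of immune and cancer cells, the peak at chr21:25573754-25574310 had scores of 8.54 in clone 1, 20.99 in clone 2 and 18.5 in control. Over MIR4449, in the DANCR peak, they were 19.5, 35.2 and 29.9 in the same order of groups. Adjoining peaks over MIR3648-2 and MIR10396A on chromosome 21 had scores of 53.1 and 84.0 in clone 1 and 52.8 and 70.8 in control. Clone 2 had 1 peak of 36.6 over both. Whether the reads of these peaks have a single place in the genome was not checked. Of 70 distal peaks over tRNA genes 26 were kept (37.1%, expected 35.5%), of 13 over small nuclear RNA genes 9, and of 2 over vault RNA genes both. Of those 9, 6 lay over RNVU1 genes, variant copies of U1 on chromosome 1. These copies are nearly identical, so the placement of their reads is uncertain.

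Members and other control peaks lay close to the limits of the rule on either side. Just inside 10 kb lay members near MSC (10.003 kb), BBS12 (10.006 kb) and CPNE4 (10.009 kb), with control scores of 9.04, 6.09 and 9.23. Just outside lay control peaks near NR2F1 (9.99 kb), RFK (9.97 kb) and SSUH2 (9.97 kb), with 6.51, 8.66 and 14.1. Just inside 500 kb, and so the farthest members, were peaks near C1orf87 (499.9 kb), SETBP1 (499 kb) and CCDC179 (498.9 kb). The peak near C1orf87 had scores of 8.46 in clone 1, 13.5 in clone 2 and 8.72 in control. Just outside were control peaks near ZPLD1, SLC4A3 and JARID2. By width, members near OXR1, ADAMTS17 and ACBD3 measured 1499, 1497 and 1496 bp, and control peaks near HERC3, ENO4 and CDR2, at 1500, 1502 and 1502 bp, fell outside.

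Kept peaks at promoter windows were wider than the rest. Their median control width was 1003.5 bp at protein-coding windows, 765 bp at lncRNA windows and 556 bp at no window. Distal peaks at protein-coding windows were kept in 58.1% of 571 cases and those at lncRNA windows in 48.7% of 591, against 25.5% of 37181 at no window. When control score deciles counted equally, the differences from peaks at no window were 9.18 points (5.66 to 12.7) and 7.69 points (4.63 to 10.8). With width quintiles weighted as well they were -0.36 points (-4.35 to 3.63) and 1.86 points (-1.42 to 5.13), intervals that include 0. The added weights left fewer peaks in use. At protein-coding windows 20 cells were filled, with 511 peaks at windows and 16698 at none. At lncRNA windows 34 cells were filled, with 562 and 30550. Under the same weights the clones differed in sign. At protein-coding windows the difference was 4.34 points (-0.94 to 9.62) for presence in clone 1 and -7.02 points (-11.9 to -2.15) for presence in clone 2. At lncRNA windows it was 6.499 points (2.25 to 10.7) for clone 1 and -1.25 points (-5.48 to 2.98) for clone 2. After the peak at LOC105373480, the strongest at lncRNA windows were those at LOC105372173, DANCR and LOC124900414. The strongest at protein-coding windows were those inside ST7, KLHL32, KIFAP3 (a subunit of kinesin-2), EHBP1 and OCIAD1, whose scores ran over 16.4 to 22.5 in clone 1, 30.7 to 38.2 in clone 2 and 28.6 to 34.7 in control.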

How the data were processed

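ATAC-seq peak lists of MDA-MB-436 were used, 1 merged list per group: 39537 peaks in clone 1, 34572 in clone 2 and 64806 in control. The submitters' processing notes name HISAT2 (an aligner), MACS2 (a peak caller) and ChIPseeker (an annotation package) with hg38, and no version. The deposited lists have no header. The authors' last column was read as −log10 p from its minimum of 5 and from often repeated values that fall on Poisson steps. The longest run of such steps held 3816 peaks in clone 1, 2002 in clone 2 and 4051 in control, a minority of each list. The column was ranked within a list only. Read totals were not used here.

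Peaks were matched by 1 bp overlap, and distances ran from the nearer peak edge to RefSeq (GRCh38.p14) ends of 19974 protein-coding genes. Motifs were searched in RefSeq promoter windows; the planned search in whole peaks was not run without a genome. Expected shares come from deciles of the control score over all distal peaks. Intervals are exact binomial at 95%, or normal for weighted differences, which used cells with at least 10 peaks (5 for promoter classes). Code ran in Python 3.11.15, numpy 2.4.6, pandas 2.3.3 and scipy 1.17.1, and was tested on simulated peaks against bedtools 2.31.1.

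Members, lists and tests were chosen with earlier results of these data known. Named peaks followed a written rule: the 10 with the best worst rank, the 5 largest groups, the 5 genes nearest to most members, the 3 farthest, the 3 nearest each limit, the 3 largest rank gaps each way per clone, up to 3 genes per list, and the best at non-coding genes. The printed windows, NFKBIZ and the small RNA genes were chosen after their values were seen. Not every item is reported.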

Additional observations from a re-analysis of the deposited data

How the results depend on the processing

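The kept share of distal peaks (26.3%) was 28.99% with peaks above their list median, 47.0% with lists of equal length, 27.0% and 27.6% with limits of 20 and 50 kb, 25.7% with the ends of all annotated genes, 25.5% without promoter windows (added after seeing the data), and 34.8% or 39.5% with clone 1 or clone 2 alone. The excess over nearer peaks (2.56 points) became 4.95, 4.01 and 1.44 points with the median, equal-length and all-gene settings and 7.44 with clone 2 alone, and it reversed to -2.48 with clone 1 alone. The share inside genes (43.2%) was 42.0% above list medians, 41.9% and 37.7% at 20 and 50 kb, 45.1% with all genes and 42.0% without promoter windows. The share within about 12 kb of another kept peak (23.6%) was 22.7% by midpoint, 15.2% above medians, 21.1% with equal lengths, 22.3% at 50 kb, 20.2% with all genes, 28.6% and 29.5% with clone 1 and clone 2 alone and 22.7% without promoter windows; chaining at 5 or 25 kb gave 10.8% or 35.8%. Cover by clone 1 (83.3%) was 86.6% and 83.8%, and by clone 2 (45.1%) 49.4% and 45.7%, above medians and with equal lengths, and 46.8% for clone 2 at 50 kb. At 50 kb the median rank was 69.6 in clone 2 and 81.4 in control. The share of list genes nearest to a member (34.7%) was 21.3% at 50 kb and 47.1% with all ends within 100 kb. The cause of the reversal was not tested. Results kept their values under 50% overlap. Motif alternatives in whole peaks were not run. No paired analysis was possible because the libraries of each group were merged into 1 list. Depth is known only through the scores. The lowest score was close to 5 in each list, but few clone 2 scores lay near it. The clone 2 peak near LOC105376722, with a score of 7.01, stood at rank 4.88 of that list. Absence from a list therefore means only that no peak was listed there, and the score of an absent region is not known. Why low scores are few in clone 2 was not tested.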
